A study of Mus musculus with 5 samples.

Results

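Surfactant and alveolar genes were followed in the esophagus of mice that carry an inducible IL-13 transgene. The 10 genes were Sftpa1, Sftpb, Sftpc, Sftpd, Napsa, Abca3, Lamp3, Slc34a2, Ager and Car4. Their members were all probe sets whose single annotated gene symbol is one of these names, which gave 16 probe sets for 9 genes, among 18191 genes measured. The one probe set that lists Lamp3 also lists Ppid, so Lamp3 has no value here. The genes were chosen by their values in these same Dox and NoDox arrays, known from an earlier analysis. Total RNA of esophagus was measured on Affymetrix 430 2.0 arrays of the mouse genome. The Dox group (n = 3 arrays) came from CC10-IL-13 transgenic mice on a diet with doxycycline. The NoDox group (n = 2 arrays) came from mice of the same transgenic line on a diet without it. Both groups were in the FVB/N background and 3 to 4 months old. In this line (CC10-rtta/teton-IL-13) the CC10 promoter, known from airway club cells, drives the doxycycline-dependent activator rtta. Whether this promoter is active in esophagus was not tested here. Nothing in the labels ties an array to 1 animal, and the p-values cover the spread among these 5 arrays, which may be technical. Diet and transgene cannot be told apart, since doxycycline-fed mice that lack the transgene were not analysed here. Each value is the ratio of a signal to the mean of the 2 NoDox arrays of that probe set, a scale that compares arrays within a gene and carries no level between genes. The number of arrays limits the precision.

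Pulmonary surfactant is the film of lipids and proteins that lowers surface tension in the alveoli. Alveolar type 2 cells make it, package it in lamellar bodies and take it up again, and flat type 1 cells and capillaries form the gas exchange surface beside them. The hydrophobic proteins SP-B and SP-C act in the film itself, whereas SP-A and SP-D are collectins, soluble lectins that bind microbes. Several of these genes are known as markers of lung, and squamous esophageal epithelium is not known as a source of surfactant. The labelled tissue was checked with 15 genes of esophageal epithelium, among them Krt4, Krt5, Krt13, Trp63 and Pax9. For 14 of these no signal level could be recovered from the ratios, which happens for bright probe sets, against 15.5% of all genes. Probe sets of Sftpc and of the airway genes Scgb1a1 and Cbr2 also had no recovered level. Whether tissue other than esophagus was present was not tested by this check.

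Most of the surfactant and alveolar genes were higher in Dox. The median log2 fold change of the 9 genes was 2.46 (5.52-fold), against -0.08 for all 18191 genes. A total of 7 of the 9 genes were at least 2-fold higher in Dox, where 7.08% of all genes were. In 8 of the 9 all 3 Dox arrays lay above both NoDox arrays, where 13.8% of all genes did, and 21.8% had all 3 Dox arrays below both. Because this contrast chose the genes, their fold changes are a description with no test and nothing is read from these shares. In RNA of whole tissue, more cells of a type and more RNA per cell cannot be told apart. The values below are log2 fold changes of Dox over NoDox with the standard error of the limma fit over all genes.

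**Figure D1:**
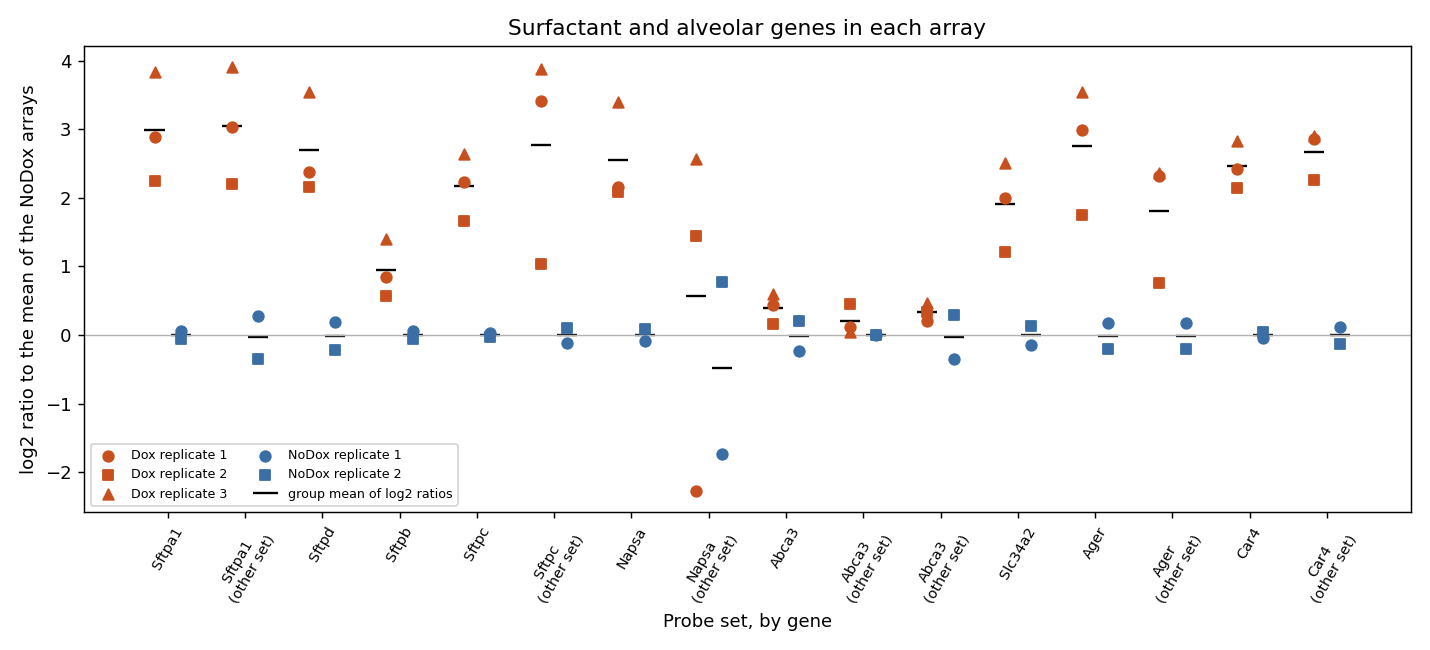
Log2 ratio of each of the 16 probe sets to the NoDox mean, with 3 Dox arrays (orange, left) and 2 NoDox arrays (blue, right) for each probe set, black lines marking group means. The Dox arrays lie above both NoDox arrays in 13 of the 16 probe sets, and the exceptions are 2 probe sets of Abca3 and the dim second probe set of Napsa.

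Promoter sequence is shown for 4 genes, the pair with the largest and the pair with the smallest fold changes among the members that the RefSeq promoter table (GRCm38.p6) holds with a value here. Each run is the 250 bases before the gene's start, 5′ to 3′ on the gene's strand, and capitals mark matches to the searched motifs. Sftpa1 lies at chr14:41131538-41131787, Ager at chr17:34597600-34597849, Sftpb at chr6:72304360-72304609 and Abca3 at chr17:24351773-24352022, all on the plus strand.
Sftpa1: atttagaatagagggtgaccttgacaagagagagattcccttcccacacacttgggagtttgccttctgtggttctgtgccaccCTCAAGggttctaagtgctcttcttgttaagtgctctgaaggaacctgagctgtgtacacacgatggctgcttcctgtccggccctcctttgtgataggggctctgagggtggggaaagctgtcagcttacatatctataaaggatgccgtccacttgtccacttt
Ager: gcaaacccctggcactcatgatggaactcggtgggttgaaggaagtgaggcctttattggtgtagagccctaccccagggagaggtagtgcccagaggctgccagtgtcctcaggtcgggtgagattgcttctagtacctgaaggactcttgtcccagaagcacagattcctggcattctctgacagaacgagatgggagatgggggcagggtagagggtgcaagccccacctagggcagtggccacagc
Sftpb: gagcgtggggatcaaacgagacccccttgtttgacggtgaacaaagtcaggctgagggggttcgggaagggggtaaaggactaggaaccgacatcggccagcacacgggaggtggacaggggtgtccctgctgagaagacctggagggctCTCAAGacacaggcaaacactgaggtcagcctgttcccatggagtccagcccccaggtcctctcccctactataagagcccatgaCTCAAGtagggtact
Abca3: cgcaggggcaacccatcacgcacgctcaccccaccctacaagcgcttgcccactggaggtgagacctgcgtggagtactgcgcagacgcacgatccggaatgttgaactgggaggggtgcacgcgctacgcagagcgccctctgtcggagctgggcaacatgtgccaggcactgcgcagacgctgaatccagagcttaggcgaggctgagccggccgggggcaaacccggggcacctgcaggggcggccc
The motifs searched, on both strands, were CTCAAG, a core recognised by the lung and thyroid factor NKX2-1, the forkhead motif TGTTTAC and a STAT6 type motif, TTC and GAA with 4 bases of any kind between them, with no overlap between matches in these runs. CTCAAG was found once in the Sftpa1 run, 166 bases before the start, and in the Sftpb run at 100 and 15 bases before the start. It occurs in 13.3% of 32851 promoter windows of the same length. Over the 7 members with a promoter in the table, 2 held CTCAAG, 1 held TGTTTAC (3.17% of all windows) and 0 held the STAT6 type motif (5.85% of all windows). A match describes letters in the window and is not a binding site. Of the genes with CTCAAG, Sftpa1 had the largest fold change of the 9 members and Sftpb the second smallest. The Ager run held none of the 3 motifs, and neither did that of Abca3.

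Among the surfactant proteins the collectins had the largest fold changes by the probe set that stands for each gene, while the second probe set of Sftpc, at 2.78 on the log2 scale, exceeded Sftpd at 2.71. Sftpa1, which encodes SP-A, had ratios of 7.41, 4.74 and 14.3 in Dox replicates 1, 2 and 3, against 1.04 and 0.957 in NoDox replicates 1 and 2. The lowest Dox array was 4.55-fold above the higher NoDox array. Its log2 fold change was 2.99 ± 0.37 (7.95-fold). A second, dimmer probe set of Sftpa1 gave ratios of 8.20, 4.61 and 15.0 in Dox, against 1.21 and 0.787 in NoDox. Both probe sets of Sftpa1 thus had the same order of arrays and nearly the same size, with 3.08 on the log2 scale for the second.

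Sftpd, which encodes SP-D, had ratios of 5.20, 4.48 and 11.7 in Dox, against 1.14 and 0.860 in NoDox, a log2 fold change of 2.71 ± 0.35. Every Dox array of Sftpd was at least 3.93-fold above the higher NoDox array. Sftpa1 and Sftpd are close neighbours on mouse chromosome 14, with the mannose-binding lectin gene Mbl1 as the single other protein-coding gene between them in the RefSeq gene table (GRCm38.p6). Mbl1, also a collectin, had ratios of 1.05, 1.46 and 0.245 in Dox, against 1.25 and 0.746 in NoDox, and did not pass the test (log2 fold change -0.42 ± 0.76, limma adjusted p = 0.832). The neighbours on either side of Mbl1 were thus high in every Dox array while the ratios of Mbl1, a dim probe set with 539 to 3364 steps in Dox and 1536 to 2612 in NoDox, overlapped between groups. Of 5 collectin genes outside the members, 0 passed the limma test in either direction, also 0 at an unadjusted p under 0.05, and those of highest signal were Colec12 (0.11 ± 0.23, adjusted p = 0.863) and Colec11 (0.09 ± 0.39, adjusted p = 0.940).

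Sftpc, the gene of SP-C and the most specific marker of type 2 cells in the set, had ratios of 4.69, 3.16 and 6.22 in Dox, against 1.02 and 0.976 in NoDox. Its log2 fold change was 2.18 ± 0.24, with a gap of 3.09-fold between the lowest Dox and the higher NoDox array. Its second probe set, of a type whose probes may match other transcripts, had ratios of 10.6, 2.05 and 14.6 in Dox, against 0.924 and 1.08 in NoDox. The groups did not overlap in either probe set. The second, much dimmer one spread 7.15-fold between Dox arrays, against 1.96-fold for the first, and gave a log2 difference of 2.78.

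Sftpb, the gene of SP-B, which is needed for the surfactant film and for lamellar bodies, had the smallest fold change among the surfactant proteins. Its ratios were 1.80, 1.49 and 2.64 in Dox, against 1.04 and 0.962 in NoDox. The log2 fold change was 0.94 ± 0.22 (1.92-fold), and the groups were separate, with the lowest Dox array 1.43-fold above the higher NoDox array. By fold change Sftpb was at rank 1395 from the highest of 18191 genes, whereas Sftpa1 was at rank 75, Sftpd at 108 and Sftpc at 230.

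The genes of surfactant processing, storage and transport differed widely among themselves. Napsa, the aspartic protease that processes the SP-B precursor, had ratios of 4.48, 4.26 and 10.5 in Dox, against 0.943 and 1.06 in NoDox. Its log2 fold change was 2.55 ± 0.36, and the Dox arrays were at least 4.03-fold above the higher NoDox array. The second probe set of Napsa had ratios of 0.207, 2.71 and 5.90 in Dox, against 0.300 and 1.70 in NoDox, a log2 difference of 1.06 in the same direction. It was dim, with recovered signals of 79, 1079 and 2243 steps in Dox and 108 and 605 in NoDox, where a step is the smallest unit in which the signals were stored. The brighter set had 15904, 15765 and 37053 steps in Dox and 3155 and 3496 in NoDox. Dox replicate 1 lay below both NoDox arrays in the dim probe set, and in the bright one the groups did not overlap.

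Slc34a2, the phosphate transporter of type 2 cells, had ratios of 4.00, 2.30 and 5.68 in Dox, against 0.906 and 1.09 in NoDox. Its log2 fold change was 1.91 ± 0.32, and the lowest Dox array was 2.11-fold above the higher NoDox array. Abca3, the lipid pump of the lamellar body membrane, stood apart from the rest. Its brightest probe set had ratios of 1.35, 1.11 and 1.52 in Dox, against 0.853 and 1.15 in NoDox, a log2 fold change of 0.41 ± 0.19, and the groups overlapped. The other probe sets of Abca3 had log2 differences of 0.20 and 0.37. In the first of them the lowest Dox array was 1.03-fold above the higher NoDox array, and in the other the groups overlapped. Over all 3 probe sets of Abca3 the ratios ran from 1.03 to 1.52 in Dox, against 0.782 to 1.22 in NoDox.

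The genes of the alveolar surface and its capillaries, Ager and Car4, had fold changes between those of Sftpa1 and Sftpc by the probe set that stands for each gene. Ager, the receptor RAGE and a marker of type 1 cells, had ratios of 7.93, 3.36 and 11.6 in Dox, against 1.13 and 0.869 in NoDox. Its log2 fold change was 2.77 ± 0.43, the largest standard error among the members. The second probe set of Ager had ratios of 4.97, 1.68 and 5.16 in Dox, against 1.13 and 0.868 in NoDox. Its log2 difference was 1.82, below the 2.18 of Sftpc. Dox replicate 2 was the low array in both probe sets of Ager, 3.46-fold and 3.06-fold below Dox replicate 3, and the groups did not overlap in either. Car4, a carbonic anhydrase on the surface of alveolar capillary endothelium, had ratios of 5.34, 4.40 and 7.14 in Dox, against 0.973 and 1.03 in NoDox. Its log2 fold change was 2.46 ± 0.23, and which cells made the Car4 transcript here was not tested. The second probe set of Car4 had 7.22, 4.77 and 7.44 in Dox, against 1.08 and 0.916 in NoDox, so the 2 sets were alike, with log2 differences of 2.46 and 2.67. Among the 7 members at least 2-fold higher Car4 was the most even, with a 1.62-fold spread between the Dox arrays.

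The members varied together over the Dox arrays. In all 9 genes, by the probe set that stands for the gene, Dox replicate 3 was highest, replicate 1 second and replicate 2 lowest. This order held in 13 of the 16 probe sets. It held in 17.4% of all genes, and in 25.5% of the genes whose Dox arrays all lay above both NoDox arrays. The median ratio of the members was 4.69, 3.36 and 7.14 in Dox replicates 1, 2 and 3, against 1.02 and 0.976 in NoDox replicates 1 and 2. The NoDox arrays did not share such an order, since NoDox replicate 1 was the higher in 9 probe sets and replicate 2 in 7. The order of Dox arrays is shared by genes hybridised to the same arrays, and no test was made on it.

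**Figure D2:**
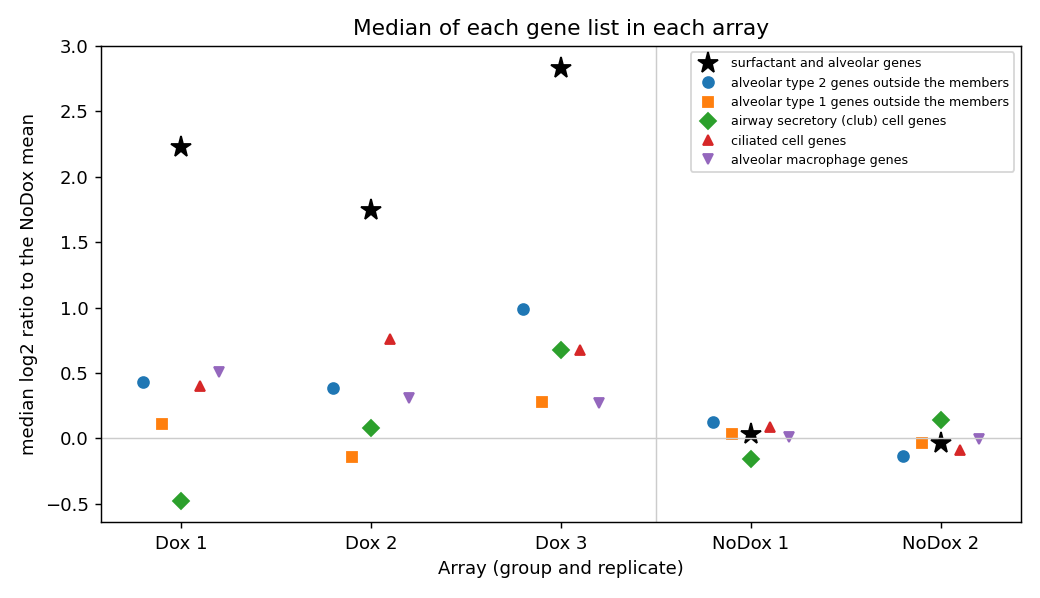
Median log2 ratio to the NoDox mean of the 9 surfactant and alveolar genes (stars) and of 5 lists of related genes, in each Dox and NoDox array. The members' median is 2.23, 1.75 and 2.84 in the Dox arrays and near 0 in both NoDox arrays, while the medians of the other lists stay below 1 in every array.

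Other genes of alveolar epithelium were tested to see how far the pattern went beyond the members. Over all genes the Dox arrays had 250 genes called higher (1.37%) and 215 called lower (1.18%) by limma, at a Benjamini-Hochberg adjusted p under 0.05. The split was 307 to 137 with median centring and 340 to 122 with quantile normalization. Without an intensity trend in the variance, limma called 6 and 0 genes, none of them in the alveolar lists below. With the trend, 3153 of the 18191 genes had an unadjusted limma p under 0.05, both directions together. Of 21 genes of type 2 cells outside the members 4 rose, 0 fell and 17 did not pass. At an unadjusted limma p under 0.05, 10 of the 21 were higher and 1 lower. The median log2 fold change of the 21 genes was 0.58 (0.24 to 0.84 over the alternatives), against -0.08 for all genes. Chil1, a chitinase-like gene, rose by 3.13 ± 0.21 (adjusted p = 0.000128), with ratios of 8.04, 7.19 and 11.3 in Dox, against 1.15 and 0.846 in NoDox. Cxcl15, the chemokine lungkine of lung epithelium, rose by 3.41 ± 0.37 (adjusted p = 0.00227), with ratios of 8.54, 6.99 and 18.3 in Dox, against 1.23 and 0.766 in NoDox. Without NoDox replicate 2 the adjusted p of Cxcl15 was 0.0553. Hc, complement component 5, rose by 3.13 ± 0.67 (adjusted p = 0.0485) and Lyz2, a lysozyme that macrophages also make, by 0.91 ± 0.20 (adjusted p = 0.0498). These last calls were both lost without Dox replicate 1, Dox replicate 3, NoDox replicate 1 or NoDox replicate 2 (highest adjusted p 0.379 for Hc and 0.339 for Lyz2), and Hc was 1.12 with the larger offset added to the signal. Genes of the same list chosen after their values were seen were Ctsh, Cldn18 and Lpcat1, all on the positive side. Ctsh, the SP-B and SP-C processing protease, was at 0.73 ± 0.17 (adjusted p = 0.0622). The tight junction gene Cldn18 was at 1.75 ± 0.41 (adjusted p = 0.0635) and the surfactant lipid enzyme Lpcat1 at 0.76 ± 0.22 (adjusted p = 0.118). For all genes no count above 0 was made, here or beside later lists, and their median was -0.08 (0.02 with median centring). Positive values were found for 17 of the 21 genes. The negative ones were Ppp1r14c (-0.44 ± 0.15), Etv5 (-0.07 ± 0.24), Egfl6 (-0.06 ± 0.16) and Pgc (-0.03 ± 0.81), and none of these passed. The summed recovered signal of 18 genes of the list was 439326, 383015 and 620841 steps in Dox, against 227009 and 196026 steps in NoDox. Bright genes with large fold changes, such as Chil1 and Cxcl15, weigh most in this gap, so it does not stand for the list as a whole. Lyz2, Npc2 and Fabp5 had no recovered level and were not in the sum.

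The genes of type 1 cells outside the members were read beside Ager. Of 14 such genes 0 rose, 1 fell and 13 did not pass (2 higher and 4 lower at an unadjusted limma p under 0.05), with a median log2 fold change of 0.00 (-0.12 to 0.26 over the alternatives). Igfbp2, a growth factor binding protein, fell (-1.37 ± 0.21, adjusted p = 0.0132), a call lost without Dox replicate 3, NoDox replicate 1 or NoDox replicate 2 (highest adjusted p 0.177). No signal was recovered for Limch1 and Emp2, which had the highest lower bounds in the list, so that their rank by signal is unknown. Limch1 was at 0.04 ± 0.25 (adjusted p = 0.960) and Emp2 at -0.03 ± 0.22 (adjusted p = 0.964). The widely used markers Aqp5 (-0.81 ± 0.29, adjusted p = 0.199), Hopx (-0.43 ± 0.18, adjusted p = 0.261) and Pdpn (0.37 ± 0.18, adjusted p = 0.317) were chosen after their values were seen, and squamous epithelium or other tissues also express them. Across both alveolar lists together, leaving out 1 array moved the counts between 1 and 7 higher and between 0 and 3 lower. Both ends of the higher count came from single arrays, 1 without NoDox replicate 2 and 7 without Dox replicate 2. It was 2 higher without Dox replicate 1, Dox replicate 3 or NoDox replicate 1.

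**Figure D3:**
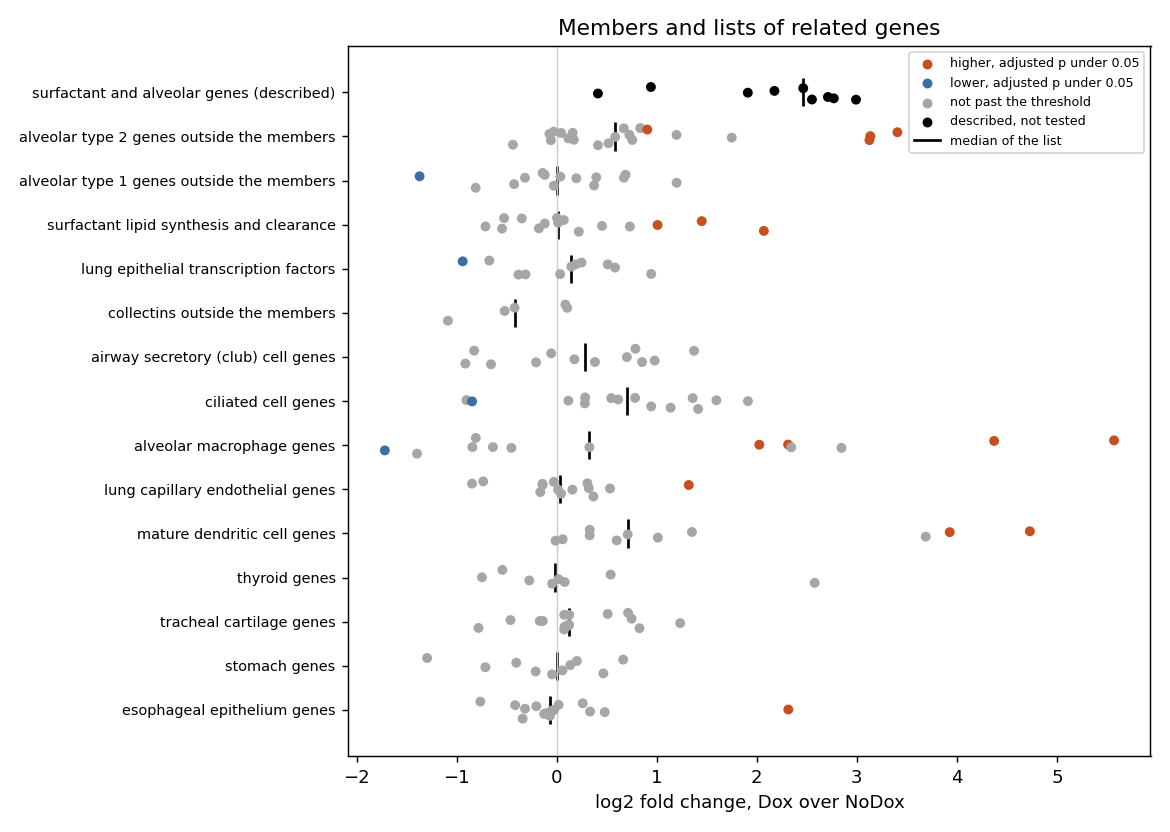
Log2 fold change of Dox over NoDox for each gene of the members (top row, black, described without a test) and of 14 lists of related genes, with calls at limma adjusted p under 0.05 in orange (higher) and blue (lower) and list medians as black lines. The members' median is 2.46, and the highest list median below it is 0.71, that of mature dendritic cell genes.

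Genes around surfactant production and clearance were read next. Of 15 genes of surfactant lipid synthesis and clearance 3 rose and 0 fell (4 and 3 at an unadjusted limma p under 0.05). The list median was 0.01, and 9 of the 15 genes had a log2 fold change above 0. The lipid synthesis genes Pcyt1a (-0.53 ± 0.13, adjusted p = 0.0794) and Scd1 (-0.71 ± 0.23, adjusted p = 0.153), chosen after their values were seen, did not pass. All 3 genes that rose encode subunits of receptors for GM-CSF and related cytokines. GM-CSF is known to be needed by alveolar macrophages to clear surfactant, and many other myeloid cells carry these receptors. Csf2rb rose by 2.07 ± 0.24 (adjusted p = 0.00305), Csf2rb2 by 1.45 ± 0.29 (adjusted p = 0.0382) and Csf2ra by 1.01 ± 0.17 (adjusted p = 0.0170). All 3 calls were lost without either NoDox array, those of Csf2rb2 and Csf2ra also without Dox replicate 3 and that of Csf2rb2 without Dox replicate 1 (highest adjusted p 0.0876, 0.309 and 0.228). Csf2rb and Csf2rb2 share much of their sequence, so the split between them is uncertain.

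Of 11 transcription factors of lung epithelium 0 rose and 1 fell (2 and 1 at an unadjusted limma p under 0.05). Foxp2 fell (-0.94 ± 0.17, adjusted p = 0.0230), a call lost without Dox replicate 3, NoDox replicate 1 or NoDox replicate 2 (highest adjusted p 0.253). Nkx2-1, which directs the surfactant genes in type 2 cells, had ratios of 0.756, 2.03 and 0.294 in Dox, against 0.945 and 1.05 in NoDox (-0.38 ± 0.79, adjusted p = 0.857). Nkx2-1 was dim, with 1184, 3310 and 459 steps in Dox and 1398 and 1540 in NoDox, and was at -0.10 with the larger offset. Its Dox arrays lay on both sides of the NoDox arrays. No difference was detected, and with a standard error of 0.79 on the log2 scale even a large one in either direction could be missed. The factors of highest lower bound, with no recovered signal, were Klf5 (0.25 ± 0.15, adjusted p = 0.436) and Cebpa (0.03 ± 0.21, adjusted p = 0.955).

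Markers of the conducting airway were compared because the CC10 promoter belongs to club cells. Of 12 club cell genes 0 passed the limma test in either direction, with 2 higher and 2 lower at an unadjusted p under 0.05. Scgb1a1, which encodes CC10 itself, had ratios of 1.37, 1.46 and 2.56 in Dox, against 1.05 and 0.949 in NoDox (0.79 ± 0.25, adjusted p = 0.146). Its Dox arrays lay above both NoDox arrays, and its signal was among those whose level could not be recovered. Cbr2, which like Scgb1a1 had a lower bound in place of a signal, was at -0.21 ± 0.24 (adjusted p = 0.715). The summed signal of 9 club cell genes was 81056, 107906 and 208161 steps in Dox, against 75120 and 105042 steps in NoDox, so the groups overlapped. Of 14 genes of ciliated cells 0 rose and 1 fell (4 and 1 at an unadjusted limma p under 0.05), while 12 had a log2 fold change above 0 and the list median was 0.70 (0.05 to 0.87 over the alternatives). The faller was Tppp3 (-0.84 ± 0.18, adjusted p = 0.0477), a call lost without Dox replicate 1, Dox replicate 3, NoDox replicate 1 or NoDox replicate 2 (highest adjusted p 0.393). Sec14l3, named by the same rule of highest level, was at 0.94 ± 0.24 (adjusted p = 0.0816). The summed signal of 13 ciliated cell genes was 47916, 44067 and 60508 steps in Dox, against 27456 and 23378 steps in NoDox. The Il13 transcript had ratios of 0.305, 0.877 and 0.678 in Dox, against 1.15 and 0.853 in NoDox (-0.81 ± 0.91, adjusted p = 0.709). It was dim, with 125, 375 and 277 steps in Dox and 444 and 326 in NoDox, against a median signal of 3929 steps over all recovered values. At this signal the ratios do not show whether the transcript differed.

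Markers of other lung and immune cells moved in the same arrays, and their part in the members' values was not tested. Of 13 genes of alveolar macrophages 4 rose and 1 fell (6 and 2 at an unadjusted limma p under 0.05). Only 7 of the 13 had a log2 fold change above 0, and the list median was 0.33 (0.16 to 0.49 over the alternatives). Chil3, a chitinase-like gene that many alternatively activated macrophages also make, rose by 5.57 ± 0.13 (adjusted p = 8.9e-08). The scavenger receptor Marco rose by 4.37 ± 0.81 (adjusted p = 0.0277), and the integrin Itgax, also of dendritic cells, by 2.03 ± 0.36 (adjusted p = 0.0228). The fourth, the proton pump subunit Atp6v0d2, rose by 2.31 ± 0.43 (adjusted p = 0.0277). The keratin Krt79 fell (-1.72 ± 0.30, adjusted p = 0.0223). The call of Chil3 held without each array in turn. Those of Marco and Itgax were each lost in 2 such fits, Marco without Dox replicate 3 or NoDox replicate 2 and Itgax without either NoDox array (adjusted p up to 0.211). Atp6v0d2 lost its call without Dox replicate 1, Dox replicate 3 or either NoDox array (up to 0.267) and Krt79 without Dox replicate 3 or either NoDox array (up to 0.224). With the larger offset Marco was 1.09 on the log2 scale, Itgax 1.17, Atp6v0d2 1.23 and Krt79 -1.17. The summed signal of 12 of these genes, without Chil3, was 110777, 130375 and 137542 steps in Dox, against 109108 and 102723 steps in NoDox.

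Of 14 genes of lung capillaries, cells in which Car4 is known, 1 rose and 0 fell (2 and 2 at an unadjusted limma p under 0.05). The list median was 0.03. The gene that rose was the adhesion molecule Icam2 (1.32 ± 0.21, adjusted p = 0.0149). That call was lost without Dox replicate 3, NoDox replicate 1 or NoDox replicate 2 (highest adjusted p 0.201), and Icam2 was 0.78 with the larger offset. Sema3c (-0.85 ± 0.26, adjusted p = 0.135) and Tbx3 (0.01 ± 0.22, adjusted p = 0.984) had the highest levels in the list, that of Sema3c a lower bound. The summed signal of 13 capillary genes was 307172, 221358 and 260578 steps in Dox, against 227098 and 215111 steps in NoDox. In steps Dox replicate 2 lay between the NoDox arrays, and on the scale of the ratios it would stand lower against both. Of 11 genes of mature dendritic cells, which also make LAMP3, 2 rose and 0 fell (6 and 0 at an unadjusted limma p under 0.05). A log2 fold change above 0 was found for 10 of them. Those that rose were the chemokine receptor Ccr7 (4.73 ± 0.88, adjusted p = 0.0277) and the chemokine Ccl22 (3.93 ± 0.79, adjusted p = 0.0366). Both were dim, at 0.54 and 1.11 with the larger offset. Of the fits that leave out 1 array, the call of Ccr7 held only without Dox replicate 2 (highest adjusted p 0.242) and that of Ccl22 only without NoDox replicate 1 (highest 0.211).

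Neighbouring organs were read with lists of thyroid (8 genes), tracheal cartilage (15 genes) and stomach (10 genes). In each of the 3 lists 0 genes passed the limma test in either direction, with 1, 0 and 0 genes at an unadjusted p under 0.05, and the list medians were -0.01, 0.12 and 0.01. The thyroid genes of highest signal were Slc26a4 (2.58 ± 0.73, adjusted p = 0.109), an anion exchanger that other epithelia also make, and Duoxa2 (0.02 ± 0.40, adjusted p = 0.988). Those of cartilage were Col9a1 (1.23 ± 0.83, adjusted p = 0.503) and Comp (0.71 ± 0.38, adjusted p = 0.383), and those of stomach Tff1 (0.06 ± 0.24, adjusted p = 0.936) and Ctse (0.14 ± 0.24, adjusted p = 0.829). The 15 genes of esophageal epithelium had a median of -0.07, with 3 higher and 4 lower at an unadjusted limma p under 0.05. Of the 15 genes 1 rose at the adjusted threshold, Krt6a (2.31 ± 0.13, adjusted p = 4.8e-05), a keratin of activated keratinocytes. None of its 3 probe sets had a recovered level, so the choice among them was arbitrary, and the others were at 1.80 and 2.43. Also without a recovered level, Pax9 (-0.05 ± 0.15, adjusted p = 0.896) and Krt14 (0.48 ± 0.17, adjusted p = 0.190) did not pass.

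The genes with the pattern most like that of the 7 members that were at least 2-fold higher were found by the Euclidean distance of the 5 log2 ratios to the median profile of those members, over 18182 other genes. For scale, the 7 members lay at 0.27 (Napsa), 0.29 (Sftpd), 0.57 (Car4), 0.70 (Sftpa1), 0.75 (Ager), 0.88 (Sftpc) and 1.33 (Slc34a2) from this profile. Sftpb and Abca3, which did not enter the profile, lay at 2.93 and 3.93. The nearest was Fcmr, an Fc receptor for IgM, at a distance of 0.46, with ratios of 4.20, 4.24 and 13.0 in Dox, against 0.949 and 1.05 in NoDox. Next came the lipoxygenase Alox12e (0.61), the beta-glucan receptor Clec7a (0.71), 1700063D05Rik (0.77), the zinc finger gene Zic2 (0.81) and Atp6v0d2 (0.87). All of these genes lay nearer to the profile than the members Sftpc and Slc34a2, and Fcmr nearer than all members but Napsa and Sftpd. The likeness is over 5 arrays and is a description.

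**Figure D4:**
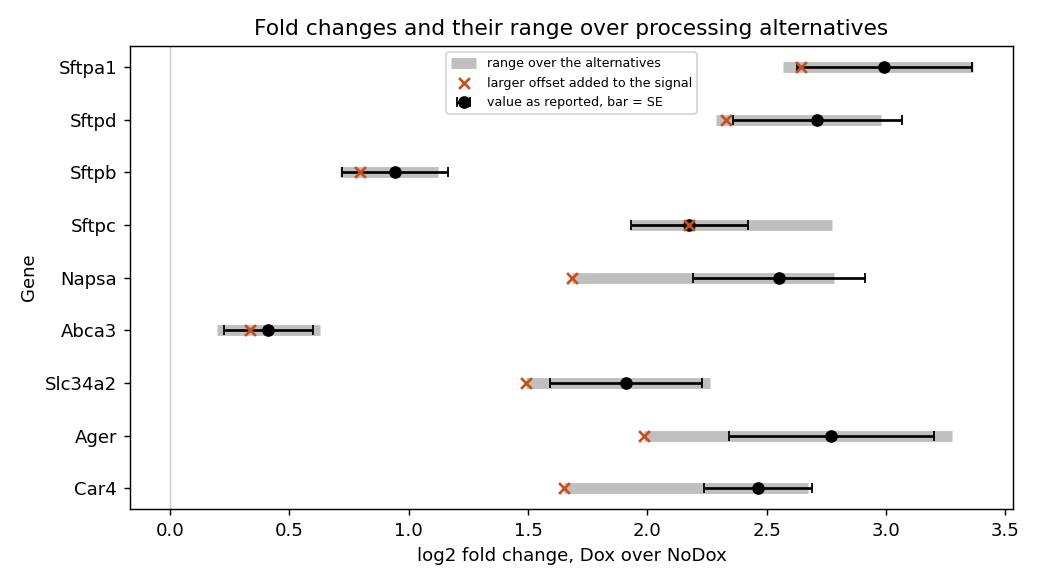
Log2 fold change of Dox over NoDox of each of the 9 genes (points, bars are SE of the limma fit), with its range over the processing alternatives (grey) and its value with the larger offset added to the signal (crosses). All values lie above 0, and with the larger offset Car4 is at 1.65, Napsa at 1.69 and Ager at 1.99.

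The sizes of the members' fold changes depended on the signal to different degrees. Adding the larger offset, the median recovered signal, to every recovered signal brought Car4 to 1.65, Napsa to 1.69 and Ager to 1.99 on the log2 scale, while Sftpa1 stayed at 2.64 and Sftpd at 2.33. Sftpc had no recovered level in its main probe set, so no offset was added to it. With 1 array left out in turn, Sftpa1 ranged from 2.57 to 3.36, Sftpd from 2.29 to 2.98, Ager from 2.38 to 3.27 and Slc34a2 from 1.61 to 2.26. Sftpb ranged from 0.71 to 1.12 and Abca3 from 0.20 to 0.63.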

How the data were processed

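MAS 5.0 and GeneSpring 7.3.1 are the tools named in the submitters' processing notes. The authors deposited a linear ratio for each probe set and array. Its denominator was checked: in 45099 of 45101 probe sets both NoDox values together give 2 within 0.0001, so each value is relative to the NoDox mean. The deposited ratios carry no level.

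Levels were therefore recovered as whole step numbers that give all 5 ratios within 3e-07, with 1 constant per array and up to 50000 steps in NoDox replicate 2, for 40710 of 45098 probe sets (90.3%). With shuffled ratios 33 of 4000 probe sets (0.825%) had one, and on simulated data 96.4% of recovered levels were right. Probe sets without one got a lower bound in its place. Steps leave out the array constants, which relative to NoDox replicate 2 were 0.932, 0.894 and 0.936 in Dox and 0.988 in NoDox replicate 1. Sums in steps therefore stand higher in Dox against NoDox than on the scale of the ratios.

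The test on log2 ratios was limma's (version 3.58.1, R 4.3.3, lmFit and eBayes with a trend on the recovered level), two-sided, Benjamini-Hochberg adjusted over 18191 genes at 0.05, with no offset. Each gene was represented by its probe set of highest level; among probe sets with no recovered level this choice rests on nearly equal bounds and is arbitrary. Of the probe sets 34945 list 1 gene symbol, 932 several and 9160 none. With 3 Dox and 2 NoDox arrays, exact permutation cannot give a p below 0.1. On simulated data the fit called 80, 135 and 167 of 200 genes changed 2-fold, 4-fold and 8-fold, with 7, 4 and 7 false calls.

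The members and lists were chosen with earlier results of these data known. From each list the text names the 3 calls of smallest p in each direction and, with under 2 calls, the 2 genes of highest level, beside Scgb1a1, Nkx2-1, Il13 and Cxcl15. Other list genes were chosen after their values were seen. Same-numbered Dox and NoDox arrays did not vary together (correlation 0.0468 between the differences of replicates 1 and 2), so the numbers were not taken as pairs. Alternatives changed the scaling, offset, filter on level, choice of probe set, variance trend, weights, replicate block, threshold and arrays. Python 3.11.15, numpy 2.4.6, pandas 2.3.3 and matplotlib 3.10.9 were used.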

Additional observations from a re-analysis of the deposited data

How the results depend on the processing

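The members' fold changes kept their sign in all 153 values over the alternatives, and 4 moved by more than the spread between replicates. Part of this was fixed in advance, since the level filter and the variance trend settings cannot change a member's fold change. The replicate block also gave the same values as the fit without Dox replicate 3. Because this contrast chose the members, the count is no independent support. The members' median of 2.46 fell to 1.69 with the larger offset, and ranged from 2.13 to 2.63 with 1 array left out. Counts of calls depended on the variance model. The reported counts were 250 genes higher and 215 lower, and 4 and 1 among the other alveolar genes. With no intensity trend limma found 6 genes higher and 0 lower, beside 2419 with an unadjusted p under 0.05, and 0 and 0 alveolar genes. With the trend on the mean log2 ratio, chosen after seeing the data, it called 0 and 0 (2371 with an unadjusted p under 0.05, and 3153 as reported), and 0 and 0 alveolar genes. Array weights gave 454 and 500, with 9 alveolar genes higher, and a threshold of 0.1 gave 455 and 489, with 7. Fewer genes were lower with median centring (137), quantile normalization (122), the probe set of highest mean log2 ratio (123) and array constants removed (141, with 7 alveolar genes higher), the last also chosen after seeing the data. These last 2 settings moved the median of all genes up by 0.14 and 0.11 on the log2 scale. The small offset left 2 alveolar genes higher. With 1 array left out the counts ranged from 48 to 376 higher and 9 to 472 lower, and from 1 to 7 and 0 to 3 alveolar genes. The lowest came without NoDox replicate 1 and the highest without Dox replicate 2 for both counts over all genes. They were 192 and 209 when Dox replicate 1 was left out, 123 and 48 for Dox replicate 3, and 55 and 12 for NoDox replicate 2. With the replicate block, although the numbers do not pair the arrays, 356 genes were higher and 468 lower, 6 alveolar genes were higher and the members' median was 2.13. Where these settings moved a count, the cause was not tested. Dim probe sets, such as the second of Napsa and of Sftpc, limit what the ratios show.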
